A study of Homo sapiens with 6 samples.

Results

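The matrix metalloproteinases described here are 10 secreted or membrane-bound enzymes, MMP1, MMP2, MMP3, MMP7, MMP9, MMP10, MMP11, MMP12, MMP14 and MMP16. They were taken from a gene expression array as every probe set (a group of short probes read together as 1 measurement) whose only gene symbol is one of these names. This gave 18 probe sets of the 22215 on the array that are not controls: 4 each for MMP14 and MMP16, 3 for MMP11, and 1 for each of the other genes. No filter on signal was applied to them.

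Expression was measured in 2 kinds of cell. The IRE1dn cells were a clone of U87, a human glioblastoma line, that expresses a dominant negative transgene of IRE1alpha (labelled U87 IRE1.NCK DN), and the ctrl cells were U87 clones with the empty plasmid. Each group has 3 arrays, and all cells had spent 16 h in DMEM with 10% FBS and glutamine before total RNA was isolated. The study asked which genes go with tumour invasion and angiogenesis. The labels name 1 clone for IRE1dn, so a difference of that clone and an effect of the transgene cannot be told apart. Nothing says that replicates were separate cultures, and p-values therefore cover only the variation among these arrays, which could be technical. The labels name ctrl clones in the plural and do not say which clone each ctrl array comes from, so variation among the ctrl arrays may also lie between clones.

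Matrix metalloproteinases are zinc enzymes that cut collagens, proteoglycans, adhesion proteins and other proteins outside the cell. Most are made as inactive precursors, are switched on by other proteases, and are blocked by the tissue inhibitors of metalloproteinases (TIMPs). In glioblastoma the family is studied mainly for its part in invasion of brain tissue. IRE1alpha, encoded by ERN1, is a sensor of stress in the endoplasmic reticulum and splices the XBP1 transcript.

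All 6 arrays had been scaled to a trimmed mean of 100.03 signal units, and their median signals lay between 18.4 and 20.9 units. Correlations of log2 signals ran from 0.974 to 0.979 within IRE1dn, from 0.959 to 0.967 within ctrl, and from 0.930 to 0.951 between groups. IRE1dn array 3 had the highest 3′ to 5′ signal ratio of ACTB, a sign of RNA quality, at 1.64 against 1.09 to 1.21 on the other 5 arrays. Its GAPDH ratio was 0.940, against 0.869 to 0.923 on the other 5. The mean log2 signal of the hybridisation spike controls was also highest on that array, at 9.35 against 8.33 to 8.61. The summed signal of 5 markers for a glioblastoma line was 4413 to 7003 units in IRE1dn and 4271 to 4577 units in ctrl, nearly all of it from VIM and CD44. The glial markers GFAP and S100B averaged 0.711 and 0.311 units in IRE1dn and 1.55 and 0.241 units in ctrl. XBP1 fell to 123 ± 8.97 units in IRE1dn, against 232 ± 31.3 units in ctrl (SD, n = 3 each). Its log2 change was -0.90, with an SE of 0.16 and a limma adjusted p of 0.0070. The ERN1 probe set averaged 11.1 ± 1.58 units in IRE1dn and 12.3 ± 1.53 units in ctrl (SD, n = 3 each). Whether its probes match the transgene is not known, so it does not check the labels.

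Among the 10 members, a set of neighbouring secreted enzymes was low in IRE1dn and a membrane-bound enzyme was high. MMP3, MMP1 and MMP12 fell, 3 of the 4 MMP14 probe sets rose, and the probe sets of the other 6 genes did not pass the test. Changes are IRE1dn minus ctrl on the scale log2(signal + 1.75), tested by limma on all 22215 probe sets with Benjamini-Hochberg adjustment, a threshold of 0.05 and two-sided p-values. Of the 18 probe sets, 3 were called lower, where 7.05% of all probe sets were, and 3 were called higher, where 8.15% of all were. Probe sets of 1 gene are not independent, and the 3 higher calls all measure MMP14. With 1 probe set per gene, the one with the highest mean log2 signal, 3 of 10 genes were lower against 8.67% of 11963 genes, and 1 of 10 was higher against 9.20%. The 10 members were chosen with earlier results of these data known, so these counts do not stand for the whole family. Among 11 other metalloproteinases on the array, 0 were lower and 1 was higher. The median log2 change of the 18 probe sets was 0.32, against 0.03 over all probe sets. With 1 probe set per gene the median of the 10 members was 0.18, against 0.02 over all genes. The arrays of the groups did not overlap for 9 of the 18, where the figure over all probe sets was 33.5%.

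**Figure D1:**
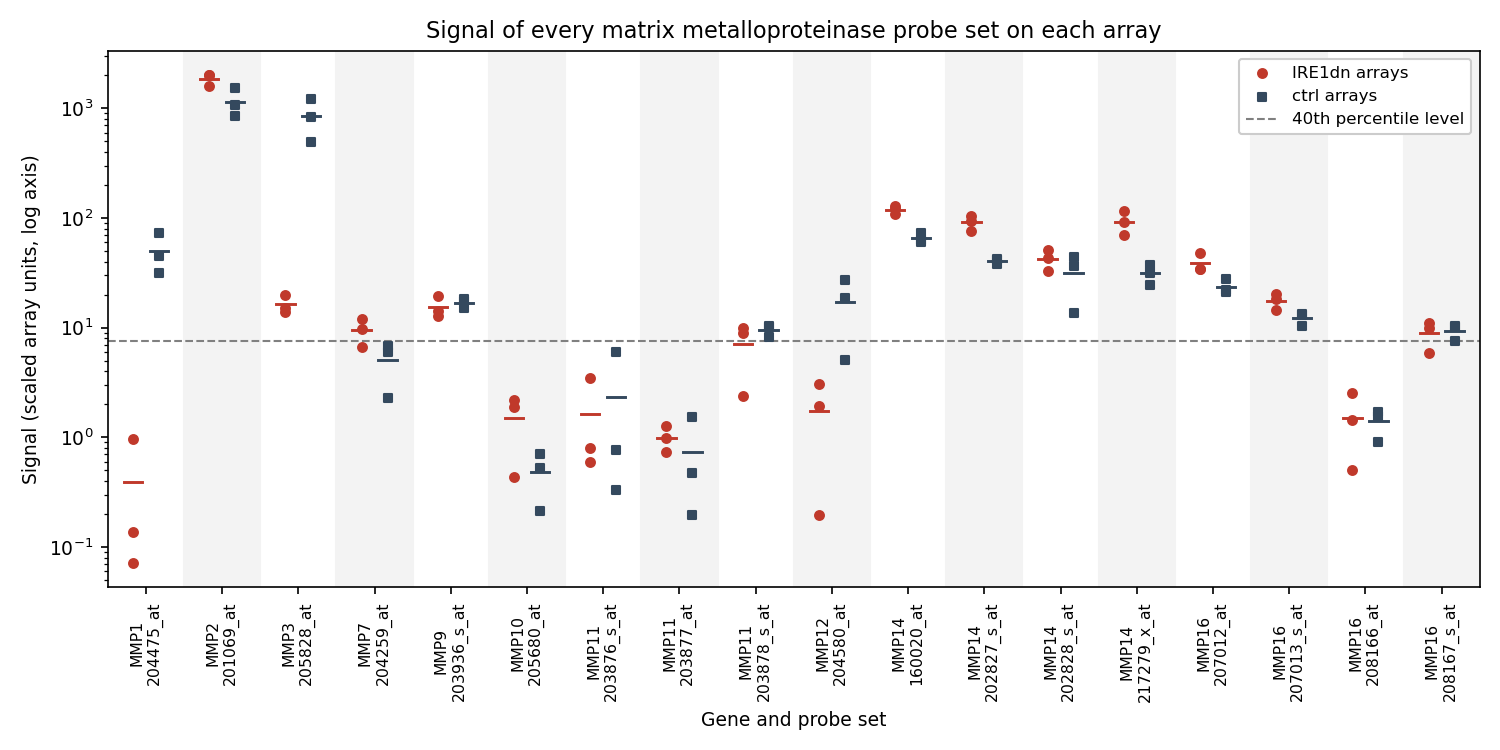
Signal of each of the 18 probe sets (log axis, scaled array units) on the 3 IRE1dn arrays (red circles) and the 3 ctrl arrays (dark squares). Short lines are group means and the dashed line is the 40th percentile level of 7.55 units. MMP1, MMP3 and MMP12 lie lower on every IRE1dn array than on any ctrl array, and 3 of 4 MMP14 probe sets lie higher.

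The dashed level in the plot of signals is the 40th percentile of the mean log2 signal over all probe sets, which equals a signal of 7.55 units. No detection calls were used here, so a dimmer signal is called neither present nor absent. Both group means lay below that level for 4 of the 18 probe sets and both lay above it for 10. The level of one probe set is not set against that of another, because probes differ in how strongly they bind. In a culture measured in bulk, fewer expressing cells and less RNA per cell cannot be told apart.

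MMP3, stromelysin-1, cuts proteoglycans, fibronectin and laminin and can activate the precursors of other metalloproteinases. Its probe set (205828_at) read 20.05, 13.9 and 15.2 units on IRE1dn arrays 1 to 3, against 831, 1217 and 495 units on ctrl arrays 1 to 3. Every IRE1dn array lay far below the lowest ctrl array, and the ctrl arrays themselves spanned a wide range. The ratio of the ctrl mean to the IRE1dn mean was 51.8. MMP3 fell by 5.47 on the log2 scale (SE 0.30, limma adjusted p = 1.8e-05), and it passed the threshold under all 16 alternative settings, with changes between -5.81 and -4.65.

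MMP1, the interstitial collagenase, makes the first cut in intact fibrillar collagen. Its probe set (204475_at) read 0.974, 0.0718 and 0.135 units on the IRE1dn arrays, against 31.7, 73.3 and 44.8 units on the ctrl arrays. All IRE1dn values lay under the 40th percentile level and all ctrl values above it. MMP1 fell by 4.53 (SE 0.42, limma adjusted p = 0.00034). Because the IRE1dn signal is so dim, the size rests on the pseudocount, and with a pseudocount of 16 it was -1.96 (adjusted p = 0.0025).

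MMP12, the macrophage elastase, degrades elastin. Its probe set (204580_at) read 3.05, 1.94 and 0.196 units on the IRE1dn arrays, against 18.8, 27.2 and 5.03 units on the ctrl arrays. The groups did not overlap, but ctrl array 3 was under the 40th percentile level, as were all IRE1dn arrays. MMP12 fell by 2.29 (SE 0.59, limma adjusted p = 0.030). The call ended when any 1 array other than ctrl array 3 was left out (adjusted p of 0.053 to 0.12, changes of -2.57 to -1.86), with a pseudocount of 16 (-0.84, adjusted p = 0.057) and without the intensity trend (adjusted p = 0.052). Without ctrl array 3 the change was -2.90 (adjusted p = 0.0069). MMP12 is named for macrophages, and the 7 leukocyte markers summed to 76.7 to 81.8 units in IRE1dn and 28.8 to 59.3 units in ctrl, most of it from the CSF1R probe set (56.4 ± 2.31 units in IRE1dn and 31.4 ± 11.9 units in ctrl; SD, n = 3 each). PTPRC, CD14 and LYZ averaged 2.53, 1.16 and 0.652 units in IRE1dn and 3.36, 1.00 and 0.230 units in ctrl. ITGAM, FCER1G and TYROBP had log2 changes of 0.56, 0.65 and 0.71, each with arrays that overlapped between groups. Of the 7 leukocyte markers, 0 were called, and their median change was 0.56. The part of such cells in the MMP12 signal was not tested.

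The ctrl arrays differed among themselves in these enzymes. Ctrl array 2 gave the highest ctrl signal for MMP3, MMP1 and MMP12. MMP3 and MMP12 were lowest on ctrl array 3, and MMP1 was lowest on ctrl array 1. Ctrl array 2 was also the highest for the cytokines IL1B, at 1196 units against 78.0 and 104 units on ctrl arrays 1 and 3, and IL6, at 644 units against 159 and 90.1 units. The part of these cytokines in the metalloproteinase signals was not tested.

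MMP3, MMP1 and MMP12 are next to each other in the genome. In the RefSeq annotation (GRCh38.p14), chromosome 11 holds 9 protein-coding metalloproteinase genes in a row, in the order MMP7, MMP20, MMP27, MMP8, MMP10, MMP1, MMP3, MMP12 and MMP13. The 3 called genes are the sixth, seventh and eighth of the row, with no other protein-coding gene between them. MMP10, on the side of MMP1, read 1.88, 2.18 and 0.433 units in IRE1dn and 0.526, 0.711 and 0.213 units in ctrl, a log2 change of 0.50 (95% interval -0.16 to 1.16, limma adjusted p = 0.31). MMP13, on the side of MMP12, averaged 0.449 ± 0.253 units in IRE1dn and 0.359 ± 0.0545 units in ctrl (SD, n = 3 each), a change of 0.05 (95% interval -0.42 to 0.53, limma adjusted p = 0.91). Both flanking genes were at dim signals in both groups, where a fall could hardly be seen. MMP8, the neutrophil collagenase, was also dim but did not overlap between groups, with 0.734 to 1.42 units in IRE1dn and 2.18 to 2.78 units in ctrl (change -0.60, 95% interval -1.22 to 0.01, limma adjusted p = 0.18).

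**Figure D2:**
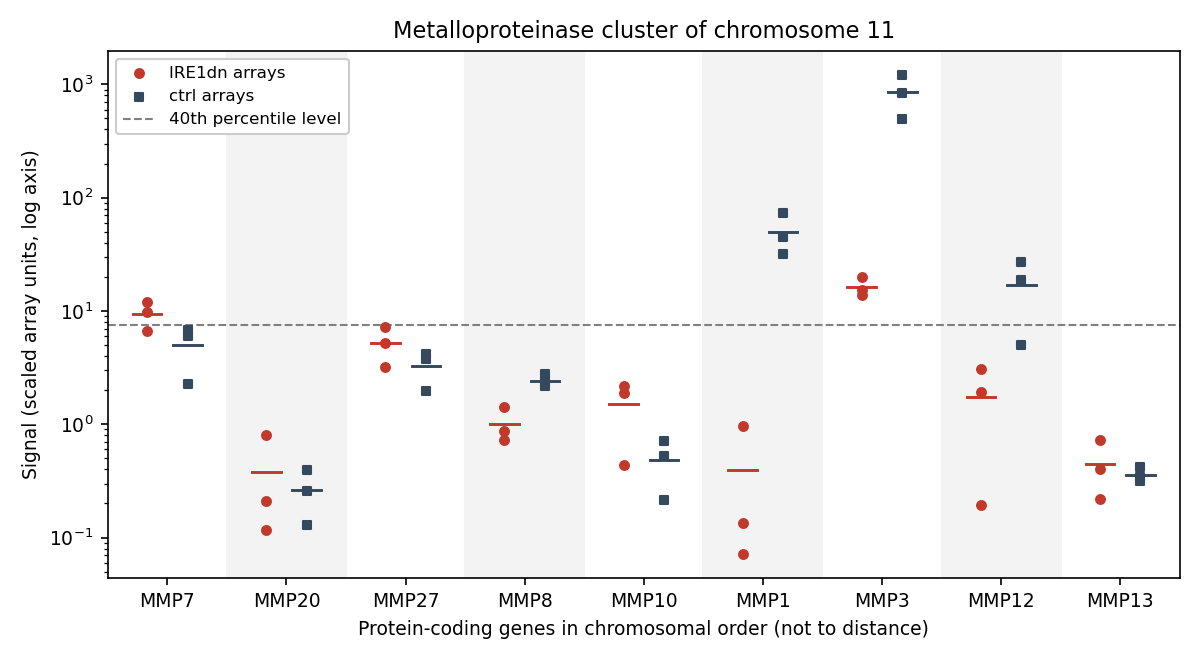
Signal (log axis, scaled array units) of the 9 protein-coding metalloproteinase genes of the chromosome 11 row, in chromosomal order and not to distance, on 3 IRE1dn arrays (red circles) and 3 ctrl arrays (dark squares), with group means as short lines. MMP1, MMP3 and MMP12 stand side by side with ctrl means of 49.9, 848 and 17.01 units and IRE1dn means of 0.394, 16.4 and 1.73 units, while the ctrl means of the other 6 genes lie below the dashed level of 7.55 units.

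Promoter sequence was searched for 4 of the 10 genes, MMP7, MMP10, MMP11 and MMP14, and the promoters of MMP1, MMP2, MMP3, MMP9, MMP12 and MMP16 were not used here. The 250 bases before the gene start are shown, from RefSeq (GRCh38.p14), for MMP14, the member that rose, and for MMP7 and MMP10, members of the chromosome 11 row that were not called. Capitals mark matches on either strand to TGANTCA (the AP-1 motif), AGGAAG (an ETS motif) and TATAAA (the TATA box). AP-1 is the Fos and Jun family of transcription factors, known as a regulator of several metalloproteinase promoters.
MMP14 promoter, chr14:22836335-22836584, plus strand: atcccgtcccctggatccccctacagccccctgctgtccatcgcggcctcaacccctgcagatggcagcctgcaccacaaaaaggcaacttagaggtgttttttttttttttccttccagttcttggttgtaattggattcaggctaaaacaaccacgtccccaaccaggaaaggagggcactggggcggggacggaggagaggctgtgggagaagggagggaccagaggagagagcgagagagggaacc
MMP7 promoter, chr11:102530748-102530997, minus strand: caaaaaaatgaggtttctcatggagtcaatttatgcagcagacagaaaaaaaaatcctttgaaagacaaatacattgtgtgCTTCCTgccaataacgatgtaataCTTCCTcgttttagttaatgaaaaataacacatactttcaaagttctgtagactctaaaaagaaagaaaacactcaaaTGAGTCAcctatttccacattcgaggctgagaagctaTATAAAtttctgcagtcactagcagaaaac
MMP10 promoter, chr11:102780629-102780878, minus strand: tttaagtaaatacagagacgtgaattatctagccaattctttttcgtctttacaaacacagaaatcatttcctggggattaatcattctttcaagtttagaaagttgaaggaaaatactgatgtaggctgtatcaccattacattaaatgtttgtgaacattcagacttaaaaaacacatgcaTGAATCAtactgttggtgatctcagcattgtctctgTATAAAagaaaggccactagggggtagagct
The MMP7 and MMP10 windows each hold 1 AP-1 match, TGAGTCA in MMP7 and TGAATCA in MMP10, and both matches begin 67 bases before the start. Each also holds 1 TATA box match, beginning 30 bases before the start in MMP7 and 31 in MMP10, and MMP7 holds 2 ETS matches. The MMP14 and MMP11 windows hold no match to any of the 3 motifs. Windows of 8 other metalloproteinases were also searched and are not shown, among them MMP20, MMP8 and MMP27 of the chromosome 11 row. MMP20 holds 1 AP-1 match, beginning 112 bases before the start, and 1 TATA box match, beginning 72 bases before it. MMP8 holds 1 TATA box match, beginning 110 bases before the start, and no AP-1 or ETS match. MMP27 holds no match to any of the 3 motifs. Of 35116 RefSeq promoter windows of the same length, 6.57% hold the AP-1 letters, 28.7% the ETS letters and 10.7% the TATA box letters. No match overlaps another in the windows shown. These are matches of letters, and binding was not measured.

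MMP7 and MMP11, also secreted, had low signals that overlapped between groups. MMP7, matrilysin, a small enzyme without the hemopexin domain of most relatives, read 11.98, 6.63 and 9.80 units in IRE1dn and 6.79, 6.01 and 2.26 units in ctrl. These overlap, and the change was 0.77 (95% interval -0.19 to 1.73, limma adjusted p = 0.28). MMP11, stromelysin-3, which furin activates before it leaves the cell, has 3 probe sets with changes of -0.49, -0.12 and 0.17 (limma adjusted p of 0.55 to 0.92). Their signals on single arrays ran from 0.591 to 9.93 units in IRE1dn and from 0.197 to 10.3 units in ctrl, and all 3 overlapped.

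The gelatinases MMP2 and MMP9 cut denatured collagen and the type IV collagen of basement membranes. MMP2 (201069_at) had signals of 2014, 1594 and 2004 units in IRE1dn, against 1086, 856 and 1526 units in ctrl. Every IRE1dn array was above every ctrl array, but the gap was narrow, with IRE1dn array 2 close to ctrl array 3. The mean was 1871 ± 239.5 units in IRE1dn and 1156 ± 341 units in ctrl (SD, n = 3 each), and the change of 0.73 (SE 0.22, 95% interval 0.23 to 1.23) missed the threshold with a limma adjusted p of 0.057. MMP2 passed in 5 of 16 alternative settings, among them the fit without ctrl array 3 (0.95, adjusted p = 0.016) and the 40th percentile filter (adjusted p = 0.026). MMP9 (203936_s_at) read 14.1, 12.7 and 19.5 units in IRE1dn and 18.2, 17.5 and 15.0 units in ctrl. The groups overlapped fully in range, with a change of -0.13 (95% interval -0.85 to 0.59, limma adjusted p = 0.84).

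MMP14, also called MT1-MMP, is anchored in the cell membrane, cuts fibrillar collagen at the cell surface, and activates the MMP2 precursor with TIMP2 as an adaptor. Probe set 160020_at read 108, 122 and 128 units in IRE1dn and 62.5, 73.7 and 61.04 units in ctrl. Probe set 202827_s_at read 75.6, 105 and 94.1 units in IRE1dn and 42.4, 38.1 and 41.9 units in ctrl. Probe set 217279_x_at read 70.4, 91.6 and 115 units in IRE1dn and 37.6, 31.7 and 24.5 units in ctrl. In all 3 every IRE1dn array was above every ctrl array. They rose by 0.85 (SE 0.18), 1.12 (SE 0.20) and 1.50 (SE 0.26), with limma adjusted p-values of 0.013, 0.0072 and 0.0055.

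The fourth MMP14 probe set, 202828_s_at, read 51.4, 43.2 and 33.1 units in IRE1dn and 36.5, 44.4 and 13.5 units in ctrl. It overlapped between groups, with a change of 0.54 (95% interval -0.38 to 1.46, limma adjusted p = 0.44). Its interval holds the changes of 160020_at and 202827_s_at. It does not reach the 1.50 of 217279_x_at, but it overlaps the 95% interval of that probe set, 0.92 to 2.08. Probe sets ending in _s_at or _x_at can bind more than 1 transcript. With any 1 array left out, 217279_x_at kept its call (changes of 1.33 to 1.68, limma adjusted p of 0.0089 to 0.041). The changes of 160020_at and 202827_s_at stayed at 0.80 to 0.93 and 1.02 to 1.25, but their calls did not always hold. Calls over all probe sets also fell, from 3377 to 1364 without IRE1dn array 2 and 1511 without IRE1dn array 3. Without IRE1dn array 2 the call ended for 160020_at (adjusted p = 0.075) and 202827_s_at (0.056), and without IRE1dn array 3 it ended for 160020_at (0.072). With IRE1dn array 3 and ctrl array 2 both left out, limma called 0 member probe sets higher, and 4 had an unadjusted p under 0.05. The MMP14 changes in that fit were 0.88, 1.05 and 1.35, close to those with all arrays.

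MMP16, also called MT3-MMP, is a second membrane-anchored enzyme, and its 4 probe sets gave no call. Probe set 207012_at read 34.5, 47.6 and 34.3 units in IRE1dn and 27.6, 22.2 and 21.0 units in ctrl. The arrays did not overlap, and the change was 0.67 (95% interval 0.07 to 1.27, limma adjusted p = 0.13). Probe set 207013_s_at also did not overlap, with 14.4 to 20.2 units in IRE1dn and 10.4 to 13.4 units in ctrl (change 0.46, limma adjusted p = 0.41). The remaining 2 probe sets overlapped, with changes of 0.01 and -0.08.

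**Figure D3:**
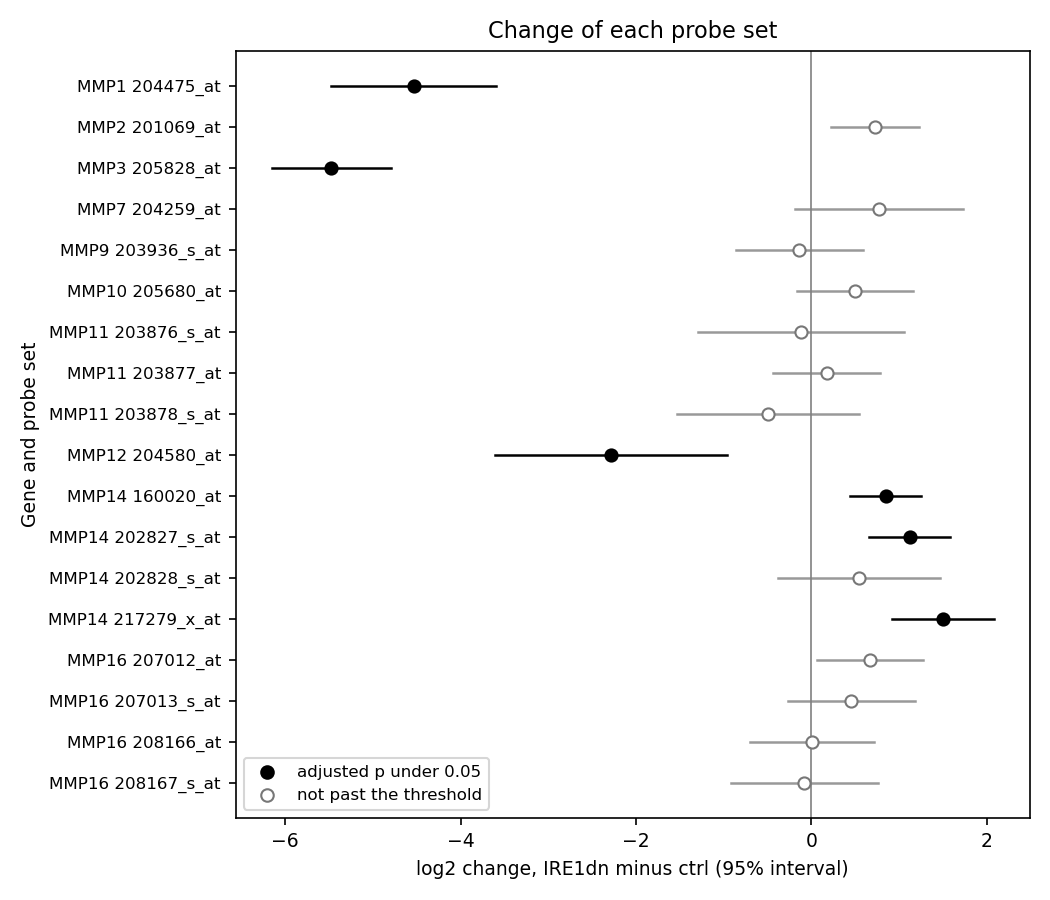
Log2 change (IRE1dn minus ctrl, on log2(signal + 1.75)) of each of the 18 probe sets with its 95% interval from limma. Filled points passed the adjusted p threshold of 0.05. The 3 falls, MMP3 (-5.47), MMP1 (-4.53) and MMP12 (-2.29), are larger in size than the 3 MMP14 rises (0.85 to 1.50).

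A further 11 metalloproteinases had a probe set of their own, and 10 of these 11 had a mean under the 40th percentile level. MMP19, which acts on basement membrane proteins, was called in 1 of its 2 probe sets. The called probe set (204575_s_at) read 46.7, 54.8 and 51.7 units in IRE1dn and 34.9, 19.03 and 26.1 units in ctrl. MMP19 rose by 0.93 (SE 0.27, limma adjusted p = 0.049), and the call ended when any 1 array except ctrl array 1 was left out (adjusted p of 0.071 to 0.18) and with quantile normalization (0.078), equal medians (0.067), a pseudocount of 16 (0.057) or no intensity trend (0.064). None of the 11 was called lower by limma, and 0 were lower at an unadjusted p under 0.05.

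Of 8 measured inhibitors, 1 rose, 3 fell and 4 did not pass, with a median change of 0.01 against 0.02 over all genes. Here and for the lists that follow, 1 probe set per gene is counted, and over all 11963 genes 9.20% rose and 8.67% fell. TIMP4 read 16.7, 15.3 and 25.8 units in IRE1dn, against 206, 194 and 232 units in ctrl (change -3.37, SE 0.23, limma adjusted p = 5.9e-05). TIMP1 read 1463, 1362 and 1561 units in IRE1dn, against 2175, 2539 and 2857 units in ctrl (change -0.78, SE 0.16, limma adjusted p = 0.013; 0.083 without IRE1dn array 2 and 0.054 without the intensity trend). The arrays of both genes were fully apart. TIMP2, which binds the MMP2 precursor, read 140.1, 185 and 191 units in IRE1dn and 37.3, 12.8 and 62.3 units in ctrl. TIMP2 rose by 2.38 (SE 0.46, limma adjusted p = 0.0087), by 1.78 without ctrl array 2, and missed the threshold without IRE1dn array 3 (adjusted p = 0.053). TFPI2, a protease inhibitor of the matrix, fell by 4.56 (SE 0.15). Without ctrl array 3, 3 of the 8 inhibitors rose.

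Of 12 genes for activation of the precursors, 2 rose, 2 fell and 8 did not pass (9.20% and 8.67% over all genes), with a median change of -0.61 against 0.02 over all genes. With 2 of 12 called in each direction, nothing is read from these counts. PLAT, the tissue plasminogen activator, read 283, 261 and 290.1 units in IRE1dn and 48.8, 63.3 and 31.4 units in ctrl (change 2.55, SE 0.24, limma adjusted p = 0.00039). PLAU, the urokinase activator of plasminogen, read 267, 354 and 288 units in IRE1dn and 618, 870 and 673 units in ctrl (change -1.24, SE 0.18, limma adjusted p = 0.0027). The 2 plasminogen activators differed in sign, each with groups that did not overlap. PCSK5, a proprotein convertase, rose by 2.18 (SE 0.29), and PRSS3, a trypsin, fell by 5.82 (SE 0.44; -3.74 with a pseudocount of 16) with a probe set that can bind related transcripts.

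The next list held 23 cytokines, growth factors and transcription factors, taken as inducers or regulators of metalloproteinases. By the chosen probe sets 0 rose, 6 fell and 17 did not pass, where 9.20% rose and 8.67% fell over all genes. The median change of the 23 was -0.33, against 0.02 over all genes. At an unadjusted p under 0.05, 2 were higher. RUNX2, a transcription factor, had 1 of its 3 probe sets called higher, and its chosen probe set passed with a pseudocount of 16 (adjusted p = 0.044) or without the intensity trend (0.045). The cytokine IL6 averaged 4.16 ± 2.88 units in IRE1dn and 298 ± 302 units in ctrl, and IL1B averaged 10.8 ± 1.93 units in IRE1dn and 459 ± 638 units in ctrl (SD, n = 3 each). HGF, hepatocyte growth factor, averaged 0.488 ± 0.470 units in IRE1dn and 82.2 ± 54.9 units in ctrl (SD, n = 3 each; change -5.06, SE 0.47, limma adjusted p = 0.00037), and its change was -2.44 with a pseudocount of 16. IL6 changed by -5.32 (SE 0.68, limma adjusted p = 0.0015) and by -3.53 with a pseudocount of 16, -4.52 without ctrl array 2 or -5.93 without ctrl array 3. IL1B changed by -4.12 (SE 0.84, limma adjusted p = 0.011), by -2.88 without ctrl array 2 and by -4.84 without ctrl array 1, and missed the threshold without IRE1dn array 3 (adjusted p = 0.057). The other 3 that fell were the cytokine LIF (-2.14), the transcription factor ETS2 (-0.996) and the AP-1 subunit JUNB (-1.01). The JUNB call ended when any 1 array was left out (adjusted p of 0.059 to 0.13) and without the intensity trend (0.064), the LIF call when any 1 IRE1dn array or ctrl array 2 was left out (0.050 to 0.083), and the ETS2 call without IRE1dn array 2 (0.060). Of other AP-1 subunits, JUN averaged 724 ± 103 units in IRE1dn and 641 ± 89.1 units in ctrl (SD, n = 3 each). FOSL1 averaged 487 ± 86.6 units in IRE1dn and 339 ± 148 units in ctrl (SD, n = 3 each). Their changes were 0.18 and 0.59 (limma adjusted p = 0.56 and 0.21). FOS, FOSB, FOSL2 and JUND had changes of -0.54, -0.41, -0.26 and -0.04 (limma adjusted p of 0.56 to 0.92). Without single arrays, 3 to 7 of the 23 fell, with 3 without IRE1dn array 2 or 3, and 1 rose without ctrl array 2.

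Of 9 genes for docking and clearance of the enzymes, 3 rose, 2 fell and 4 did not pass (9.20% and 8.67% over all genes), with a median change of 0.43 against 0.02 over all genes. ITGB3 and ITGA2, integrin subunits tied to MMP2 and MMP1 at the cell surface, averaged 15.6 ± 8.62 and 10.8 ± 5.34 units in IRE1dn and 79.3 ± 41.1 and 54.3 ± 24.2 units in ctrl (SD, n = 3 each). They fell by 2.21 (SE 0.44) and 2.14 (SE 0.43), each with a limma adjusted p of 0.011, and the ITGA2 change was -1.35 with a pseudocount of 16. Without IRE1dn array 2 neither passed (0.052 each), and without IRE1dn array 3 ITGB3 did not (0.057). Of the 7 ITGB3 probe sets, 3 were called lower and 0 higher. SDC1, ITGAV and ITGB1 rose by 0.80, 0.77 and 0.56, and none of the 3 passed without IRE1dn array 2 or 3 (adjusted p of 0.052 to 0.12) or without the intensity trend (0.057 to 0.10). ITGB1 was called in 1 of its 5 probe sets and missed the threshold with equal medians (0.098), and CD44, counted as not passing, had 3 of 8 probe sets called lower.

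Of 19 matrix substrates, 13 rose, 0 fell and 6 did not pass (9.20% rose and 8.67% fell over all genes), with a median change of 1.09 against 0.02 over all genes, and 0 were lower at an unadjusted p under 0.05. The proteoglycan HSPG2 of basement membranes averaged 102 ± 14.4 units in IRE1dn and 4.01 ± 3.11 units in ctrl (SD, n = 3 each). HSPG2 rose by 4.32 (SE 0.44; 2.56 with a pseudocount of 16), the small proteoglycan DCN by 4.28 (SE 0.21) and the collagen COL5A1 by 4.08 (SE 0.22), with limma adjusted p-values of 0.00054 or lower. The matrix genes had already been seen to rise in these arrays when the list was chosen. With IRE1dn array 3 and ctrl array 2 both left out, 7 of the 19 rose.

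**Figure D4:**
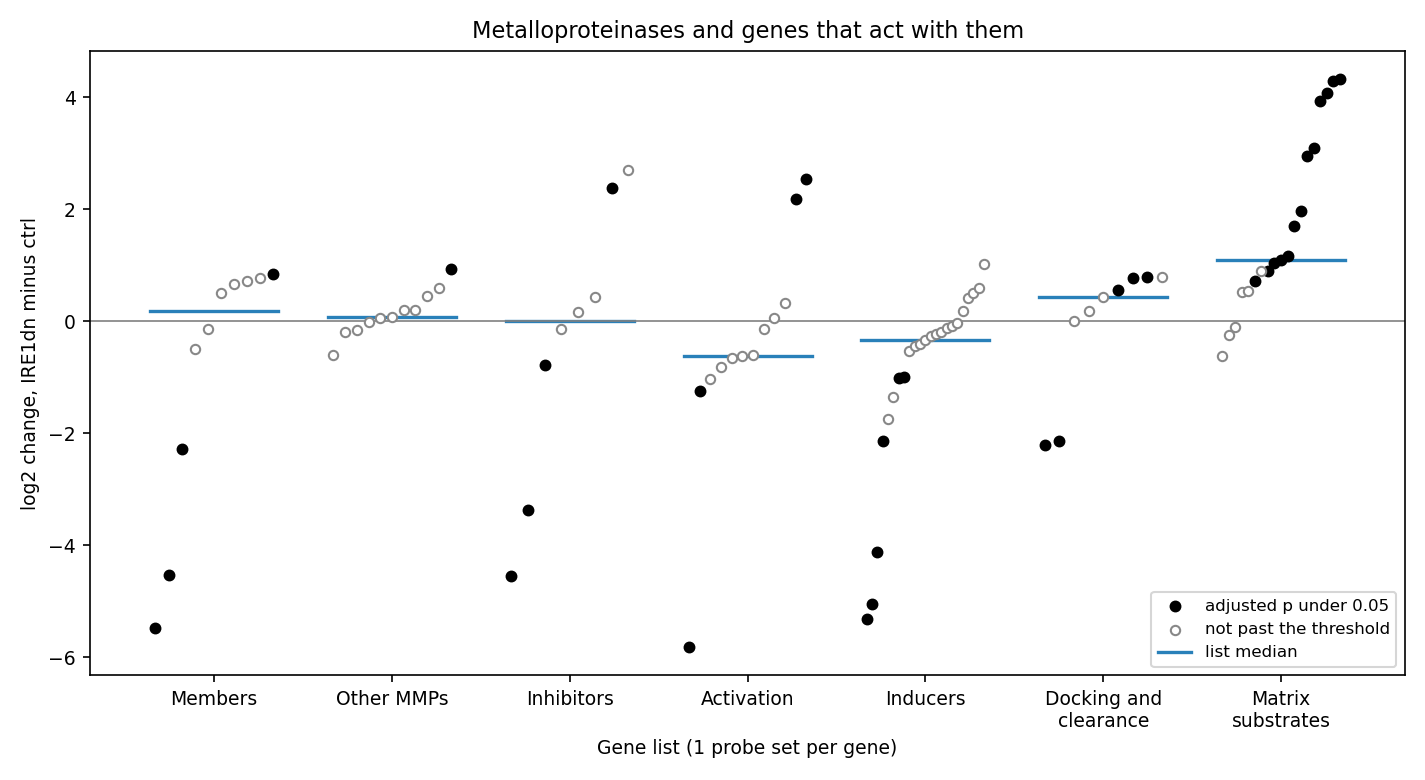
Log2 change (IRE1dn minus ctrl) of each gene in the member list and 6 lists of genes that act with metalloproteinases, with 1 probe set per gene. Filled points passed the adjusted p threshold of 0.05 and blue lines are list medians. The substrates have a median of 1.09, with 13 of 19 called higher, while members, inhibitors, activation and docking genes hold calls in both directions.

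The genes most like MMP3 over the 6 arrays were CCN3, CXCL8 and CASP4, with Pearson r of 0.999, 0.998 and 0.998 among 11889 probe sets above the 40th percentile level. Those most like MMP14 (160020_at) were SEPHS1, ZCCHC14 and INSR, with r of 0.999, 0.999 and 0.998. All 6 arrays enter each r, which therefore largely follows the gap between groups, and 136 probe sets had r above 0.98 with MMP3 and 115 with MMP14.

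**Figure D5:**
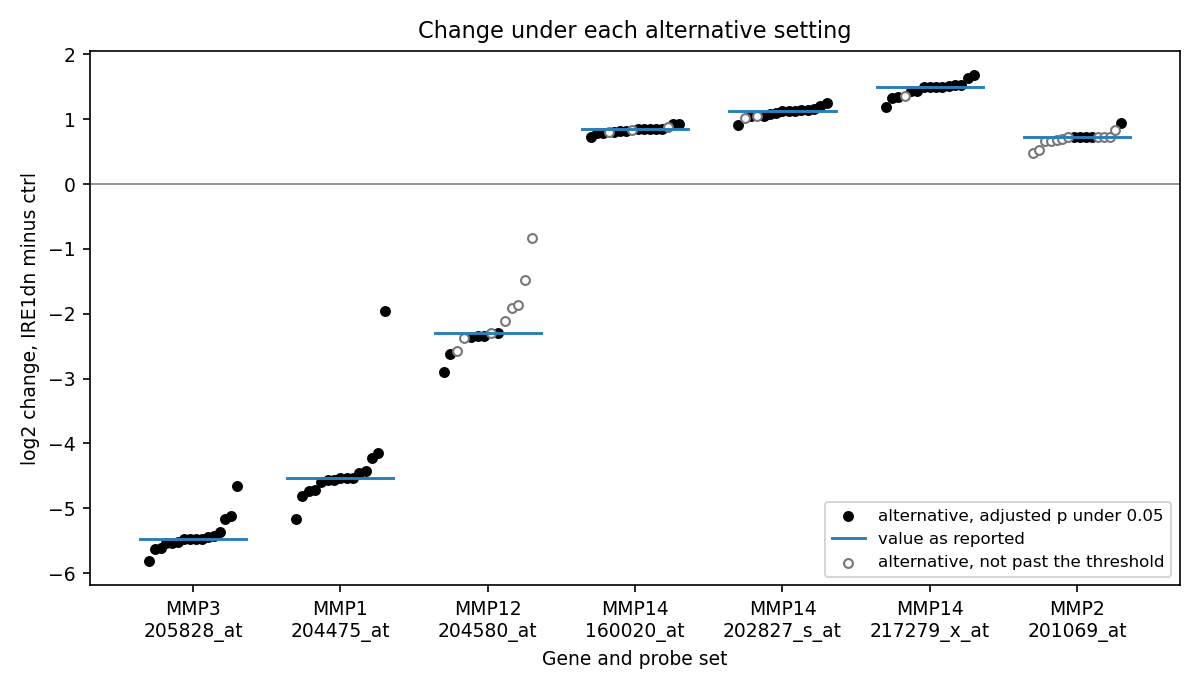
Log2 change (IRE1dn minus ctrl) of the 6 called probe sets and of MMP2 under each alternative setting, filled where the adjusted p was under 0.05, with blue lines at the reported value. MMP3 and MMP1 are filled throughout, MMP12 ranges from -2.90 to -0.84 with open points, and the MMP14 probe sets keep their size with 1 to 3 open points each.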

How the data were processed

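Total RNA from 6 samples of U87 cells, 3 IRE1dn and 3 ctrl, was read on 1 Affymetrix array each. The deposited table gives linear intensities for 22277 probe sets on each array. GCOS 1.2 is the only tool named in the submitters' processing notes, and how probes were summarised and background removed is not given in the sources used here. The trimmed mean (2% cut at each end) was 100.03 on every array, so a change shared by all transcripts would not be seen, and the number of arrays limits the precision.

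The 62 control probe sets were left out. The values were taken to log2(signal + 1.75), where 1.75 is the 20th percentile of all values; this understates changes of dim genes. Each probe set was fitted in limma 3.58.1 under R 4.3.3 (eBayes with intensity trend, no covariate), which was tested on simulated data. Symbols came from the platform annotation, updated through RefSeq (19052 of 19064 single-symbol probe sets matched). For the lists of inhibitors, activators, inducers, docking genes and substrates, up to 3 called genes per direction with the largest change were named; others were named after their values were seen. Members and lists were chosen with earlier results of these data known. Alternatives were pseudocounts, a filter, 1 probe set per gene, 2 normalizations, 2 variance settings, the replicate number as a block, and arrays left out.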

Additional observations from a re-analysis of the deposited data

How the results depend on the processing

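The count of all probe sets past the threshold was 3377. It was 2178 without the intensity trend, and between 1364 (without IRE1dn array 2) and 3438 with single arrays left out, 2196 of them without IRE1dn array 1 and 1511 without IRE1dn array 3. It was 848 without IRE1dn array 3 and ctrl array 2 together. Over all probe sets 1810 were higher and 1567 lower, against 1520 and 1804 with equal medians and 1732 and 1737 with quantile normalization; the member counts were 3 and 3 in each. Member probe sets called lower numbered 3, and 2 or 3 with single arrays left out. With 1 probe set per gene and a filter 1 was called lower, MMP3, because 5 member genes were left to test. Member probe sets called higher numbered 3, between 1 (without IRE1dn array 2) and 4 with single arrays left out, and 0 with both arrays left out. No called member changed sign under the alternatives run. The same replicate number did not mark related arrays: correlations of deviations from the group means were -0.12, 0.04 and 0.003 for equal numbers, and no array correlated best with its own number. With the replicate block 2746 probe sets passed, 3 members lower and 4 higher, the fourth being MMP2 (adjusted p = 0.039), while the calls of MMP19, JUNB and ITGB1 ended (0.091, 0.076 and 0.074). Dim signals limit MMP7, MMP10, the MMP11 probe sets 203876_s_at and 203877_at, and 1 MMP16 probe set, where a fall could hardly be measured. The MMP11 probe set 203878_s_at averaged 9.59 units in ctrl, above the 40th percentile level.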

Other observations

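TIMP3, an inhibitor bound to the matrix, was singled out after its values were seen, because 1 ctrl array stood apart from the other two. Its probe set 201150_s_at read 172, 133 and 158 units in IRE1dn and 6.08, 5.76 and 231 units in ctrl, the last on array 3. The other 3 TIMP3 probe sets were likewise highest in ctrl on array 3, at 91.3, 50.7 and 81.7 units. The change of 201150_s_at was 2.69 (SE 1.09, limma adjusted p = 0.14) with all arrays and 4.34 without ctrl array 3 (limma adjusted p = 4.0e-05). That array also held the lowest ctrl signals of MMP3, MMP12, PLAT and PRSS3 and the highest of MMP2 and TIMP2. The cause was not tested.

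The labelled line is a glioblastoma, and EPCAM, 1 of 5 epithelial markers, was called lower, at 2.57 ± 0.523 units in IRE1dn and 9.74 ± 2.26 units in ctrl (SD, n = 3 each; limma adjusted p = 0.030). CDH1, KRT19, KRT5 and KRT14 did not pass, with log2 changes of -0.28, -0.08, 0.37 and 0.75. Their means were below the 40th percentile level in both groups, and EPCAM was below it in IRE1dn. Most of the epithelial sum in ctrl came from EPCAM. The 5 epithelial markers summed to 6.30 to 11.6 units in IRE1dn and 10.3 to 18.03 units in ctrl, and the 5 endothelial markers to 19.7 to 23.6 units in IRE1dn and 26.9 to 37.1 units in ctrl.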
